A study of Mus musculus with 8 samples.

Results

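The 10 genes described here code for the 2 actins of non-muscle cells (Actb and Actg1), 4 regulators of actin assembly (Cfl1, Pfn1, Tmsb4x and Tmsb10) and 4 tubulins (Tuba1b, Tuba1c, Tubb5 and Tubb4b). They were taken by name from a table of FPKM values (fragments per kilobase of transcript, scaled to a total per library) that holds 52338 genes with values. The group was chosen because Actb differs over 100-fold between the libraries numbered replicate 1 and those numbered replicate 2, so every difference between the replicate numbers is given below as a description with no test. All 10 genes had a mean of at least 1 FPKM over the 8 libraries and so entered the fit, which took in 14561 genes.

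The libraries are total RNA of mouse embryonic stem cells (mESCs), the pluripotent cells of the early embryo kept in culture. Cells treated with sh-linc1393, with sd-linc1393 and with dd-linc1393 were sequenced in 2 libraries each, and so were untreated wild-type cells, the control. linc1393 is a long intergenic non-coding RNA, and the study concerns its part in keeping the cells pluripotent. Neither sd nor dd is spelled out in the labels, which name no strain or cell line. They are also silent on whether replicates were separate cultures, so a p-value here reflects the spread of the libraries as sequenced, which could be technical. The control cells were untreated and carried no mock reagent that the labels name. The level of linc1393 was not analysed here.

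Actin polymerises into filaments that give a cell its shape, its cortex and its motility, and tubulin dimers of an alpha and a beta chain polymerise into microtubules, which carry cargo and build the mitotic spindle. The pool of unpolymerised actin is set by proteins that bind the monomer, among them profilin and the beta-thymosins, while cofilin severs and disassembles old filaments. Transcription of many actin genes depends on serum response factor (SRF), which binds the CArG box, and SRF activity itself responds to the amount of free actin. Actb is also widely used as a reference gene for scaling other measurements.

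Promoter sequences for 9 of the 10 genes were found in RefSeq (GRCm38.p6), each from 250 bases before to 50 bases after an annotated start, in 11 windows. Actb had no entry. Both strands were searched for 4 motifs, none of which contains another. The CArG box was present in 1.63% of all 32851 promoter windows and in 1 of the 9 genes, Actg1. CCAAT was present in 37.4% of all windows and in Actg1, Cfl1, Tuba1c, Tubb5 and Tubb4b. GGGCGG was present in 35.7% of all windows and in 8 of the 9 genes, all but Tuba1c. TATAAA was present in 13.6% of all windows and in Tubb4b. A match is a run of letters and not a measured binding site. The 3 windows below are shown because they belong to an actin, an actin regulator and a tubulin whose values are followed most closely below, with the CArG box in capitals for Actg1 (chr11:120348446-120348745, minus strand) and CCAAT in capitals for Cfl1 (chr19:5490205-5490504, plus strand) and Tubb4b (chr2:25224653-25224952, minus strand).
Actg1: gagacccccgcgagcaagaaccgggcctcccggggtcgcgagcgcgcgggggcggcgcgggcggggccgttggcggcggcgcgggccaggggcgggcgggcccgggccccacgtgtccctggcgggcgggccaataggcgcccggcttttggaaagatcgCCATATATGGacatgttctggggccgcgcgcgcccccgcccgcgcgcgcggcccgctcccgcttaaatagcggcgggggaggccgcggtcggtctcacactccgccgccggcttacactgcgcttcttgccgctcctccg
Cfl1: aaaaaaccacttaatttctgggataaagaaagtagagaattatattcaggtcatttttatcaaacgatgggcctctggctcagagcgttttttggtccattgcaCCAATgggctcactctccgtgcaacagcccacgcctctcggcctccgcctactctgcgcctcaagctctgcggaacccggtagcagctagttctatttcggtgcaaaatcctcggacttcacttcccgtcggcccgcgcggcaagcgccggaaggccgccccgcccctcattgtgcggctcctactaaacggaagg
Tubb4b: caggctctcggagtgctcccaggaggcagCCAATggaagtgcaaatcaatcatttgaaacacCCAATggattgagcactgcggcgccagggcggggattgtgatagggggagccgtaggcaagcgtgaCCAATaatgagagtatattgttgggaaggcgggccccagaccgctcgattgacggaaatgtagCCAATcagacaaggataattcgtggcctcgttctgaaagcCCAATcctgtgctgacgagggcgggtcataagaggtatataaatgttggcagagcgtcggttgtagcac

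The 4 replicate 1 libraries stood apart from the 4 replicate 2 libraries across the whole table. The labels describe both numbers alike, and whether the libraries of both were made and counted in the same way cannot be told from the values. Ratios of replicate 1 over replicate 2 and orders of abundance below are therefore statements about columns of the table, not about cells. The depth, worked out from the FPKM values themselves, was 3658361 to 20387160 reads assigned to genes per library, and both control libraries were the shallowest (6415104 and 3658361). Between 16152 and 19745 genes were above 0 in replicate 1 libraries and between 32639 and 46560 in replicate 2 libraries. Over all genes tested, the difference of replicate 1 minus replicate 2 on the log2(FPKM + 1) scale, averaged over the 4 groups, had a median of -0.73, with 5% of genes below -3.13 and 5% above 1.67. All 8 stem cell markers on the list used, Pou5f1, Sox2 and Nanog among them, were above 1 FPKM in every library. Their summed level was 1320 to 1744 FPKM in replicate 1 libraries and 6862 to 9968 FPKM in replicate 2 libraries. Dppa5a alone had 292 to 557 FPKM in replicate 1 and 5866 to 8584 FPKM in replicate 2 libraries. Nanog was 0.932-fold to 1.25-fold in replicate 1 over replicate 2. Every replicate 1 library lay above every replicate 2 library for 1 of the 8 (14.2% of all genes). The opposite order held for 3 (41.9% of all genes). Pou5f1 and Sox2 had 14.7 and 19.7 FPKM in sh replicate 2, against 251 and 291 FPKM in control replicate 2. Of 10 fibroblast feeder markers, none was above 1 FPKM in a replicate 1 library, where Col3a1, Dcn, Lum and Postn were at 0. In replicate 2 libraries 1 to 4 of them were above 1 FPKM, with summed levels of 7.39 FPKM in sh, 5.88 FPKM in sd, 2.41 FPKM in dd and 9.81 FPKM in control cells, against 0.466 to 0.901 FPKM in replicate 1 libraries. The part of these differences between the replicate numbers in the values of the 10 genes was not tested.

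Actb (ENSMUSG00000029580, chr5:142903115-142906754 on GRCm38, minus strand), which codes for beta-actin, had 15668 and 55.3 FPKM in replicates 1 and 2 of sh cells, 9645 and 65.9 FPKM in sd cells, 9006 and 55.3 FPKM in dd cells, and 15913 and 76.6 FPKM in control cells. The replicate 1 libraries were high and the replicate 2 libraries low in every group, with no overlap. Replicate 1 over replicate 2 was 283-fold in sh, 146-fold in sd, 163-fold in dd and 208-fold in control cells. It was the gene with the highest FPKM in replicate 1 of sh and control cells and the 10th highest in replicate 1 of sd and dd cells, while in replicate 2 its rank was 1707 in sh, 1426 in sd, 1523 in dd and 1339 in control cells. The counts behind these values were 576679 and 2070 reads in sh, 525738 and 2713 in sd, 462291 and 3020 in dd, and 273484 and 751 in control cells, so that counting error is small beside the difference. Actb took 4.2% and 0.0148% of assigned reads in replicates 1 and 2 of sh cells, 2.58% and 0.0177% in sd cells, 2.41% and 0.0148% in dd cells, and 4.26% and 0.0205% in control cells. Of the reads of the 10 genes together, Actb held 82.0% to 89.6% in replicate 1 libraries and 3.48% to 5.3% in replicate 2 libraries. The other 9 genes together had 2253 and 1796 FPKM in sh, 2119 and 1810 FPKM in sd, 2183 and 1489 FPKM in dd, and 1956 and 1653 FPKM in control cells, so their sum was the higher in replicate 1 of every group but by far less than Actb alone. These are bulk samples, in which fewer cells of a type and less RNA per cell cannot be told apart.

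A ratio of replicate 1 over replicate 2 above 100 in all 4 groups was met by 7 of the 14561 genes (0.0481%), and Actb was the 1 member among them. With its lowest ratio of 146, Actb shared the middle of those 7 with Sept10 (146). Spry2 (220), Lgr4 (227) and Birc6 (185) had higher lowest ratios, and the predicted genes Gm12940 (133) and Gm10522 (101) had lower ones. These 6 other genes were named after their values were seen. At a ratio above 5 in all 4 groups the count was 305 genes (2.09%), among them Actb and Cfl1. The members nearest below were Tmsb4x, whose lowest ratio was 2.19, and Actg1, whose lowest ratio was 1.21.

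**Figure D1:**
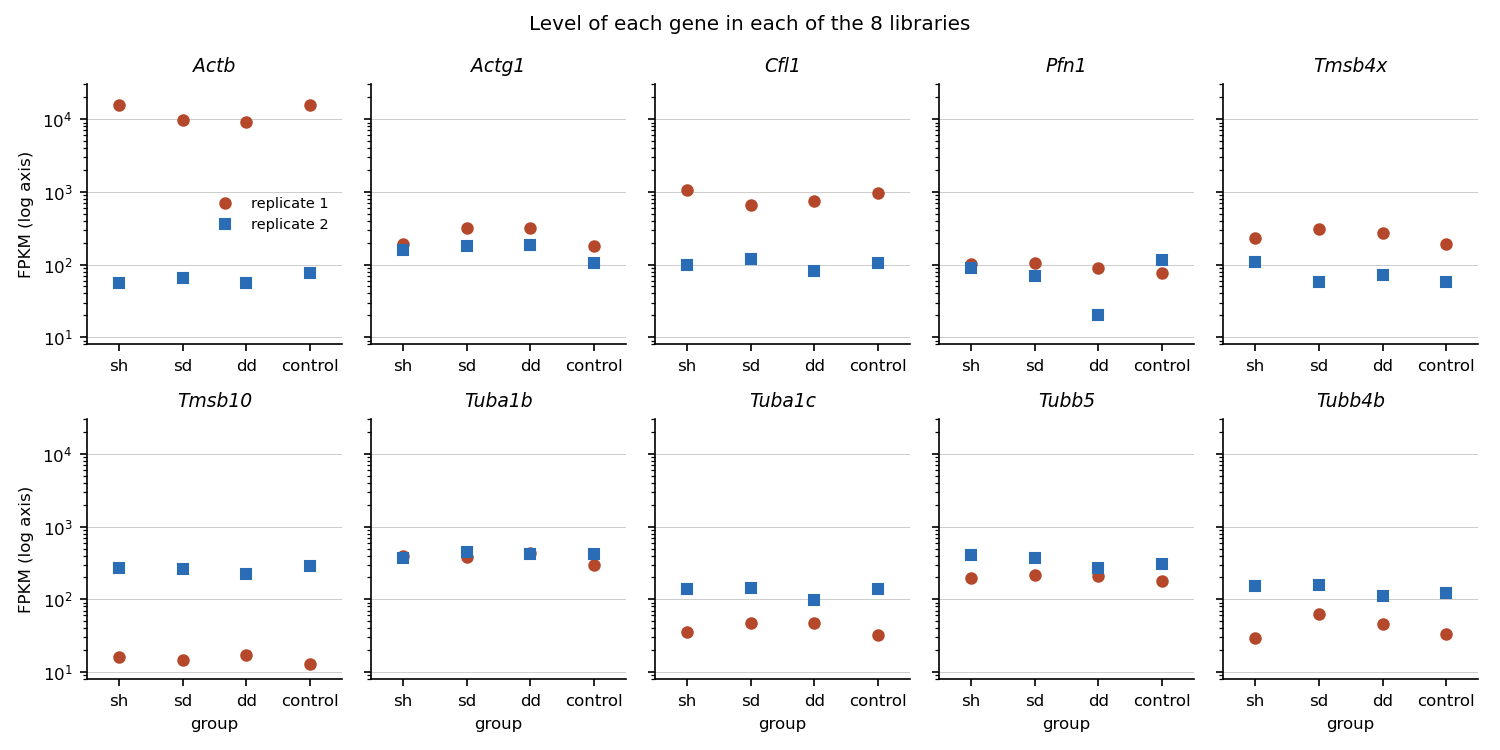
FPKM of the 10 genes in each of the 8 libraries on a log scale, by group and replicate number. Actb lies between 9006 and 15913 FPKM in replicate 1 libraries and between 55.3 and 76.6 FPKM in replicate 2 libraries, while Tuba1b lies between 295 and 442 FPKM in all 8.

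Actg1 (ENSMUSG00000062825, chr11:120345690-120348542, minus strand) codes for gamma-actin, which differs from beta-actin at a few residues near its start. It had 192 and 158 FPKM in replicates 1 and 2 of sh cells, 315 and 181 FPKM in sd cells, 318 and 187 FPKM in dd cells, and 181 and 106 FPKM in control cells. Its replicate 1 values were 1.21-fold to 1.73-fold its replicate 2 values within a group, and the ranges of the replicate numbers overlapped. The ratio of gamma-actin to beta-actin RNA, both per length, was therefore 0.0122 and 2.85 in sh cells, 0.0326 and 2.75 in sd cells, 0.0353 and 3.39 in dd cells, and 0.0114 and 1.38 in control cells. Beta-actin RNA was the more abundant in all 4 replicate 1 libraries and gamma-actin RNA in all 4 replicate 2 libraries. The actins of muscle, Acta1, Acta2, Actc1 and Actg2, were all below the mean of 1 FPKM, the highest single value being 1.58 FPKM for Actg2 in control replicate 2.

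Cfl1 (ENSMUSG00000056201, chr19:5490455-5495201, plus strand) codes for cofilin 1, which severs actin filaments. It had 1047 and 99.6 FPKM in sh cells, 663 and 119 FPKM in sd cells, 751 and 82.3 FPKM in dd cells, and 957 and 104 FPKM in control cells, replicate 1 first. As for Actb, all replicate 1 values lay above all replicate 2 values, here by 10.5-fold in sh, 5.55-fold in sd, 9.13-fold in dd and 9.16-fold in control cells. Pfn1 (ENSMUSG00000018293, chr11:70651850-70654644, minus strand), profilin 1, which promotes the exchange of ADP for ATP on actin monomers and feeds them to filament ends, had 101 and 88.3 FPKM in sh, 106 and 70.1 FPKM in sd, 90.0 and 20.2 FPKM in dd, and 75.6 and 116 FPKM in control cells. Its replicate 1 values spanned 1.41-fold and its replicate 2 values 5.76-fold, with dd replicate 2 (990 reads) the lowest library and control replicate 2 the highest.

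The beta-thymosins, small proteins that hold actin monomers out of filaments, differed between the replicate numbers in opposite directions. Tmsb4x (ENSMUSG00000049775, chrX:167207093-167209315, minus strand) had 233 and 107 FPKM in sh cells, 311 and 58.0 FPKM in sd cells, 273 and 72.5 FPKM in dd cells, and 191 and 57.6 FPKM in control cells, replicate 1 first. Tmsb10 (ENSMUSG00000079523, chr6:72957347-72958748, minus strand) had 16.3 and 268 FPKM in sh, 14.8 and 265 FPKM in sd, 17.1 and 225 FPKM in dd, and 12.8 and 289 FPKM in control cells. Tmsb4x was higher in every replicate 1 library, by 2.19-fold to 5.37-fold, and Tmsb10 was lower in every replicate 1 library, replicate 2 over replicate 1 being 16.5-fold in sh, 18.0-fold in sd, 13.1-fold in dd and 22.6-fold in control cells. The lowest read count behind any of the 80 values of the 10 genes was 105, for Tmsb10 in control replicate 1. Tmsb10 over Tmsb4x was 0.0696 and 2.51 in sh cells, 0.0474 and 4.58 in sd cells, 0.0627 and 3.11 in dd cells, and 0.0673 and 5.02 in control cells, so the more abundant thymosin RNA was Tmsb4x in replicate 1 and Tmsb10 in replicate 2.

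Among the tubulins, Tuba1b (ENSMUSG00000023004, chr15:98931425-98934565, minus strand), an alpha chain, had 401 and 374 FPKM in sh cells, 385 and 442 FPKM in sd cells, 432 and 425 FPKM in dd cells, and 295 and 416 FPKM in control cells. As deposited, its replicate 1 over replicate 2 was between 0.709-fold and 1.07-fold, against 1.08-fold to 1.97-fold under median ratio scaling and 2.08-fold to 2.73-fold under quantile normalization. Tuba1c (ENSMUSG00000043091, chr15:99029891-99038110, plus strand), another alpha chain, had 35.9 and 137 FPKM in sh, 47.1 and 146 FPKM in sd, 47.5 and 97.5 FPKM in dd, and 32.3 and 139 FPKM in control cells. Its replicate 2 values were all above its replicate 1 values, by 2.05-fold to 4.31-fold within a group. The beta chain Tubb5 (ENSMUSG00000001525, chr17:35833921-35838306, minus strand) had 197 and 414 FPKM in sh, 215 and 371 FPKM in sd, 208 and 268 FPKM in dd, and 178 and 303 FPKM in control cells. The beta chain Tubb4b (ENSMUSG00000036752, chr2:25222160-25224702, minus strand) had 29.5 and 151 FPKM in sh, 62.4 and 157 FPKM in sd, 45.6 and 112 FPKM in dd, and 33.3 and 121 FPKM in control cells. Both beta chains were higher in every replicate 2 library as deposited, Tubb4b by 2.45-fold to 5.11-fold within a group and Tubb5 by 1.29-fold to 2.1-fold, an order that Tubb5 lost under the other scalings given below.

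Counted over the 10 genes, 3 (Actb, Cfl1 and Tmsb4x) had every replicate 1 library above every replicate 2 library, an order that 14.2% of all genes tested had, and 4 (Tmsb10, Tuba1c, Tubb5 and Tubb4b) had the opposite order, which 41.9% of all genes had. Since the genes were chosen on this contrast, nothing is read from these counts. The order depends on the scaling for some of them. With the FPKM values rescaled by median ratios or by quantile normalization, alternatives added after the values were seen, the same order was found for Actb, Cfl1, Tmsb4x, Tmsb10, Tuba1c and Tubb4b. For Actb the ratio of replicate 1 over replicate 2 was then 181-fold to 520-fold and 148-fold to 630-fold. Tubb5 overlapped between the replicate numbers under median ratio scaling and was higher in replicate 1 under quantile normalization, by 1.11-fold to 1.74-fold. Actg1, Pfn1 and Tuba1b, which overlapped as deposited, were higher in every replicate 1 library under both.

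**Figure D2:**
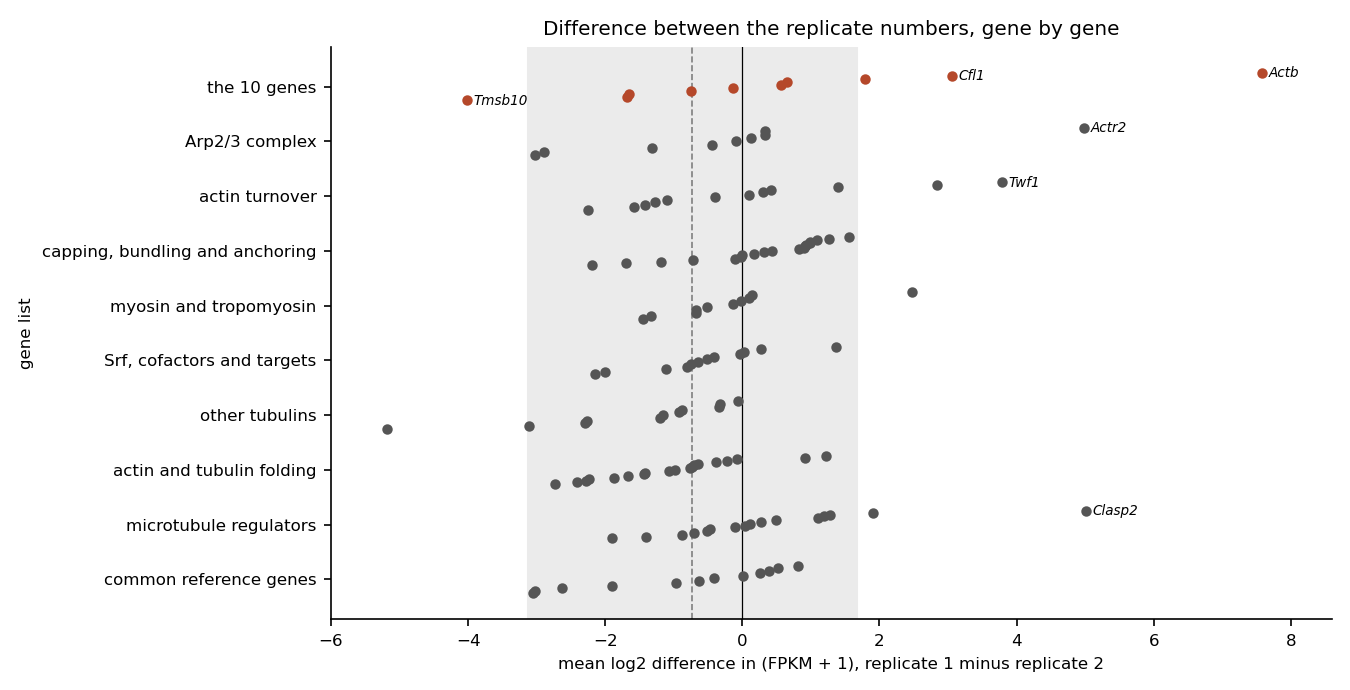
Log2 difference of replicate 1 minus replicate 2, on the log2(FPKM + 1) scale, averaged over the 4 groups, for each of the 10 genes. The tested genes of the other lists used below are shown by list, beside the spread of all 14561 genes tested. Actb, at 7.57, Cfl1, at 3.05, Tmsb4x, at 1.78, and Tmsb10, at -4.02, lie outside the range from -3.13 to 1.67 that holds the middle 90% of genes.

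How far reads of these genes can be told from those of other genes differs between the members. Of all 31-base stretches in a gene's GENCODE M21 transcripts, the share that also occurs in transcripts of other genes was 78.7% for Tuba1b, 55.3% for Tuba1c, 53.0% for Tubb4b, 40.2% for Actg1, 32.0% for Tmsb10, 23.6% for Actb, 22.6% for Cfl1, 3.5% for Tubb5, 0.329% for Pfn1 and 0% for Tmsb4x. The gene that shared most was another coding gene for Actb (Lrrc58, 15.2%), Cfl1 (Snx32, 14.3%) and Tuba1c (Tuba1b, 49.0%), and a pseudogene for Tubb4b (Tubb4b-ps1, 41.0%). The values of the genes at the top of this order are uncertain to that extent, since how the submitters counted reads that fit several genes is not given in the sources used here. Annotated pseudogenes that share at least 10% of their own stretches with a member numbered 10 for Actg1, 9 each for Tuba1b and Tuba1c, which share copies, 5 for Tmsb10, 3 each for Cfl1 and Tubb4b, 1 for Actb and 0 for the other 3.

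Reads assigned to those copies were a larger share of the member's own reads in replicate 2 than in replicate 1 for every member that had any. For Actg1 there were 1.51 and 96.6 copy reads per 100 reads of the gene in replicates 1 and 2 of sh cells, 2.79 and 59.1 in sd cells, 2.56 and 14.7 in dd cells, and 1.75 and 76.9 in control cells. For Cfl1 there were 0 and 28.1 per 100 in sh cells, 0.00521 and 22.1 in sd cells, 0.022 and 5.07 in dd cells, and 0 and 20.2 in control cells. For Tmsb10 there were 0 and 51.1 per 100 in sh cells, 0.261 and 46.7 in sd cells, 0.955 and 26.5 in dd cells, and 0 and 44.9 in control cells. Among the replicate 2 libraries sh was the highest and dd the lowest for each of these 3 genes. For Tuba1b the figures were 4.53 and 109 per 100 in sh cells, 7.08 and 68.3 in sd cells, 6.94 and 23.3 in dd cells, and 4.88 and 88.2 in control cells. For Tuba1c they were 41.5 and 245 per 100 in sh cells, 47.4 and 170 in sd cells, 51.8 and 83.0 in dd cells, and 36.5 and 216 in control cells. Tubb4b had 21.2 and 44.4 per 100 in sh cells, 13.0 and 30.5 in sd cells, 17.3 and 18.3 in dd cells, and 18.8 and 39.4 in control cells. The Actb copy had 0 reads in all 8 libraries, those with the high Actb values included, so this count carries no information on the low values in replicate 2. Other reads at the 66 genes that share stretches with Actb were not examined. Overlapping genes on the other strand were low, with at most 1.31 FPKM for Snx32 at Cfl1, 0.896 FPKM for Gm41396 at Tuba1b and 1.02 FPKM for Fam166a at Tubb4b, and Mir6935 within Actg1 was at 0. The part of pseudogene reads in the member values was not tested.

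**Figure D3:**
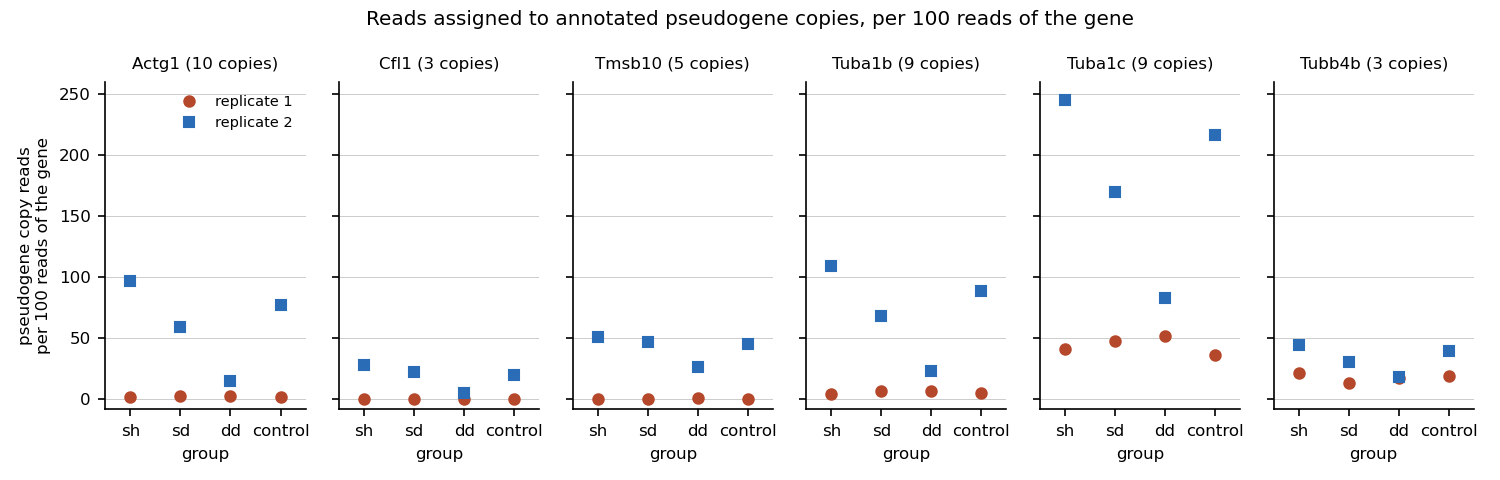
Reads assigned to annotated pseudogene copies per 100 reads of the member gene, in each of the 8 libraries, for the 6 members whose copies held reads. The replicate 2 libraries lie above the replicate 1 libraries of the same group in every panel, and for Tuba1c the values in replicate 2 are 83.0 to 245 per 100.

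Each treatment was then compared with the control. In the limma fit on log2(FPKM + 1), with p-values adjusted over 14561 genes, none of the 10 genes passed the threshold of 0.05 in sh, sd or dd cells (limma adjusted p = 1 for every member in every comparison). The background was the same, with 0.0% of genes called in each comparison, and 32 genes in sh, 50 in sd and 83 in dd at an unadjusted p under 0.05. The F test over all 4 groups called 0.0% of genes, none of them a member, and 22 were at an unadjusted p under 0.05. The spread between the replicate numbers enters this fit as error, in simulated data the fit then missed even large changes, and its lack of calls does not show that the genes did not differ. Accordingly, the standard errors of the members lay between 0.671 for the steadiest gene and 4.24 for Actb, on the log2 scale. When the replicate number entered as a block, the standard errors were 0.279 to 0.548, 0.0% of genes were called in each comparison and in the F test, and the members' adjusted p-values were 0.999 in sh, 0.723 to 0.986 in sd and 0.553 to 0.988 in dd. At an unadjusted p under 0.05 the block fit held 480 genes in sh, 945 in sd, 1310 in dd and 574 in the F test. Without control replicate 1, the block fit called 102 genes in sh, 149 in sd, 167 in dd and 38 in the F test, none of them a member. All 3 comparisons use the same 2 control libraries, so the members' values in them are not independent of each other.

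Actg1 was the member whose level stood farthest above the control relative to its error in the block fit. Its log2 difference was 0.78 in sd cells and 0.81 in dd cells, with a 95% interval in the block fit of 0.12 to 1.44 in sd cells and 0.15 to 1.47 in dd cells and an adjusted p of 0.723 and 0.553 (limma, over all genes). Within replicate numbers 1 and 2 its level was 1.73-fold and 1.71-fold the control in sd cells, and 1.75-fold and 1.77-fold in dd cells. In sh cells it was 1.06-fold and 1.49-fold, a log2 difference of 0.32 (block interval -0.33 to 0.98) that was 0.16 under median ratio scaling. Under that scaling the log2 difference of Actg1 was 0.57 in sd cells and 0.76 in dd cells. The intervals for sd and dd exclude 0 before adjustment over genes, as the block intervals did for 945 genes in sd and 1310 in dd of the 14561 tested. After adjustment neither passes the threshold. With the block and 1 library left out at a time, the log2 difference of Actg1 lay between 0.69 and 0.87 in sd cells and between 0.73 and 0.89 in dd cells. Reads at its pseudogene copies differed between the groups in replicate 2. Per 100 reads of Actg1 they were 96.6 in sh, 59.1 in sd, 14.7 in dd and 76.9 in control cells. The differences therefore depend on how reads were split between the gene and its copies, which was not tested.

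Actb was below the control of the same replicate number in all 6 treated libraries. Its level was 0.985-fold and 0.722-fold the control in replicates 1 and 2 of sh cells, 0.606-fold and 0.86-fold in sd cells, and 0.566-fold and 0.722-fold in dd cells. The log2 differences were -0.24 in sh, -0.47 in sd and -0.64 in dd cells, and the block intervals, -0.91 to 0.42, -1.13 to 0.20 and -1.31 to 0.02, all include 0. The sizes depend on the scaling, with -0.41 in sh under median ratio scaling, and -0.86 in sd and -0.93 in dd under quantile normalization. With the block and 1 library left out at a time, the difference lay between -0.61 and 0.12 in sh, between -0.74 and -0.20 in sd, and between -0.81 and -0.47 in dd cells. All 6 treated libraries lay below the control of their number for 3.66% of all genes and above it for 15.0%, among them Actg1 and Tmsb4x. The ratio of Actg1 to Actb was accordingly above the control of the same number in all 6 libraries, by 1.07-fold and 2.06-fold in sh, 2.86-fold and 1.99-fold in sd, and 3.1-fold and 2.45-fold in dd cells. An exact two-sided permutation test of this ratio gave p = 0.667 in each comparison, where 2 libraries against 2 cannot go below 0.333. That test takes no account of the replicate numbers, so the difference between them enters it as spread.

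**Figure D4:**
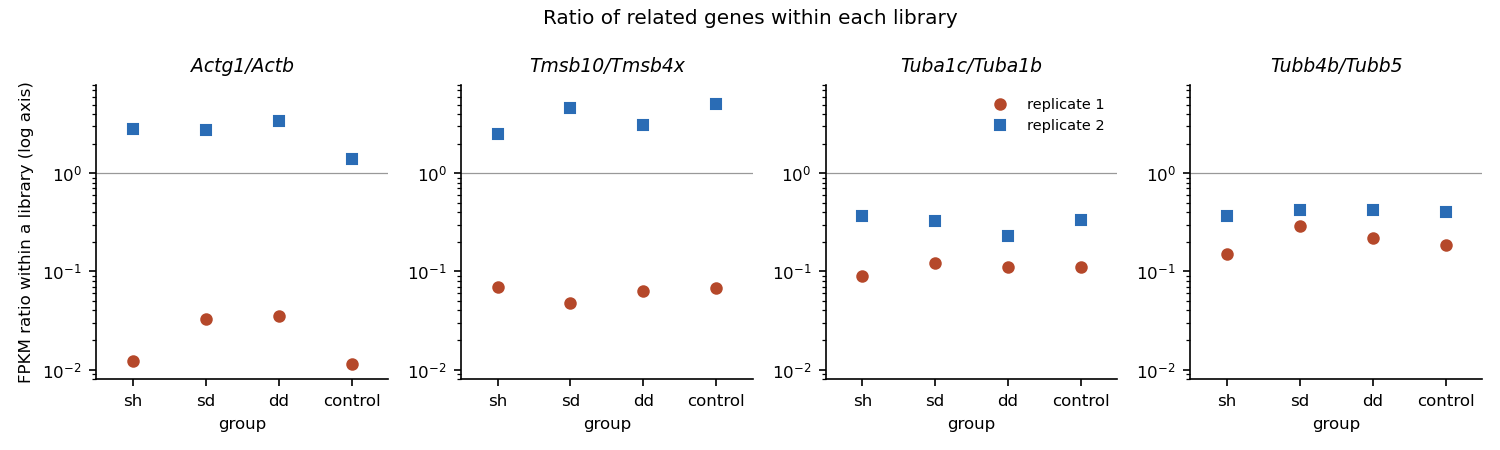
FPKM ratios of paired members (Actg1 over Actb, Tmsb10 over Tmsb4x, Tuba1c over Tuba1b and Tubb4b over Tubb5) within each library on a log scale, by group. Actg1 over Actb is 0.0114 to 0.0353 in replicate 1 and 1.38 to 3.39 in replicate 2, with the control the lowest library at each replicate number.

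The actin regulators had smaller or less even differences. Pfn1 in dd cells had the largest log2 difference of any member, -1.11 (block interval -2.35 to 0.13), and it came from replicate 2, where the level was 0.173-fold the control, while in replicate 1 the log2 difference was 0.25. Without dd replicate 2 it was -0.088 with the block. Tmsb4x had log2 differences of 0.58 in sh, 0.36 in sd and 0.42 in dd cells, and its values in replicate 2 of sd cells (58.0 FPKM) and control cells (57.6 FPKM) were nearly equal. Cfl1 lay at 0.03 in sh, -0.17 in sd and -0.34 in dd cells, and Tmsb10 within 0.11 of the control on the log2 scale in all 3 comparisons.

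No tubulin had a block interval that excluded 0. Tubb4b in sd cells had the largest tubulin difference, 0.63 on the log2 scale (block interval -0.17 to 1.43), with 0.89 in replicate 1 and 0.37 in replicate 2. Tuba1b had log2 differences of 0.14 in sh, 0.23 in sd and 0.29 in dd cells, the last with both dd libraries (432 and 425 FPKM) above both control libraries (295 and 416 FPKM). In replicate 2, reads at its pseudogene copies per 100 reads of Tuba1b were 23.3 in dd and 88.2 in control cells. That order therefore depends on how reads were split between the gene and its copies, which was not tested. Tubb5 had 0.30, 0.28 and 0.02 and Tuba1c 0.06, 0.30 and 0.02 in sh, sd and dd cells. Tuba1c over Tuba1b was 0.0895 and 0.365 in sh, 0.123 and 0.329 in sd, 0.110 and 0.230 in dd, and 0.110 and 0.335 in control cells. Tubb4b over Tubb5 was 0.150 and 0.364 in sh, 0.291 and 0.423 in sd, 0.220 and 0.418 in dd, and 0.187 and 0.400 in control cells.

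Counts of direction were read against all genes. Both treated libraries lay above both control libraries for 0 of 10 members in sh (8.4% of all genes), 1 in sd (Actg1, 11.1% of all genes) and 2 in dd (Actg1 and Tuba1b, 11.2% of all genes), and below them for none (2.13%, 2.69% and 4.72% of all genes). Higher than the control of the same number at both numbers were 3 members in sh (Actg1, Tmsb4x and Tubb5, 35.2% of all genes), 6 in sd (those 3 with Tuba1b, Tuba1c and Tubb4b, 37.5%) and 3 in dd (Actg1, Tmsb4x and Tuba1b, 31%). Lower at both numbers were Actb in sh (10.6% of all genes), Actb in sd (12.7%), and Actb and Cfl1 in dd (15.1%). The median log2 difference of the 10 genes was 0.09 in sh, 0.26 in sd and 0.02 in dd, beside 0.15, 0.17 and 0.06 over all genes.

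**Figure D5:**
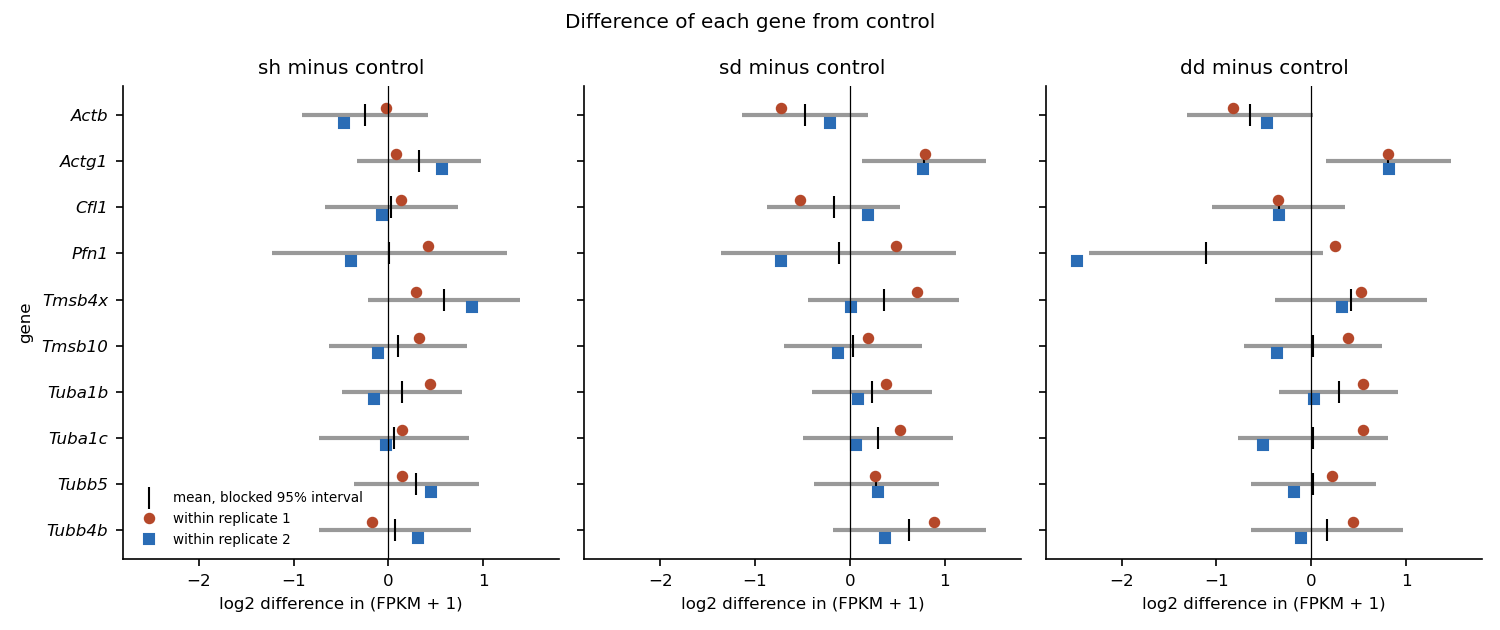
Log2 difference from the control for the 10 genes in sh, sd and dd cells, on the log2(FPKM + 1) scale, with the values within replicate numbers 1 and 2 as points and the 95% interval of the fit with the replicate block as bars. The intervals of Actg1 in sd and dd cells lie above 0, and no gene passes the threshold after adjustment over all genes. Such intervals exclude 0 for 945 genes in sd and 1310 in dd of the 14561 tested.

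The genes most like Actb over the 8 libraries were looked for by Pearson correlation of log2(FPKM + 1) among 9780 genes, as a description, since the libraries share the replicate-number difference. The closest were Lgr4, Sema4b, Tcf7l2, Tsc22d2 and Tet2, each with r = 0.998. Lgr4, a receptor for R-spondins, had 922 and 3.55 FPKM in sh, 580 and 2.56 FPKM in sd, 602 and 1.54 FPKM in dd, and 1124 and 2.6 FPKM in control cells. Of the members, Cfl1 was at place 23 (r = 0.995) and Tmsb4x at place 798 (r = 0.921), while Tmsb10 was at place 9765 (r = -0.995). After the mean of each replicate number was subtracted the closest genes were Tpst2 (r = 0.983), Tsku (0.972), Sema4b (0.958), Nmral1 (0.95) and Nlrc4 (0.95), Cfl1 was at place 74 (0.823), and Actg1 was near the other end, at place 9531 (-0.9). Sema4b, a semaphorin of the cell surface, was among the 5 closest by both measures, with 65.7 and 1.89 FPKM in sh, 39.2 and 1.83 FPKM in sd, 35.8 and 1.61 FPKM in dd, and 65.5 and 2.23 FPKM in control cells.

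Other genes of the cytoskeleton were read from the same fit, by lists that name them by function. No gene of any list passed the threshold in any comparison, with or without the replicate block, against 0.0% of all genes. Of the 9 genes of the Arp2/3 complex, which nucleates branched actin, all were tested, with median log2 differences of 0.40 in sh, 0.36 in sd and 0.53 in dd cells. Within it Actr3 had 0.49 in sh and 0.82 in sd cells, Arpc5 had 0.67 in sd and 1.06 in dd cells, and Arpc4 had -1.25 in dd cells, the farthest from 0 of these. Its Actr2, chosen after its values were seen, had 1371 and 36.3 FPKM in sh, 718 and 38.7 FPKM in sd, 829 and 40.5 FPKM in dd, and 1509 and 19.0 FPKM in control cells, while Actr3, its partner in the complex, had 27.9 and 34.1 FPKM in sh, 44.9 and 33.9 FPKM in sd, 38.7 and 44.8 FPKM in dd, and 27.1 and 17.4 FPKM in control cells. Of the 9 genes, 1 had every replicate 1 library above every replicate 2 library (14.2% of all genes). The opposite order held for 4 (41.9% of all genes). At replicate numbers 1 and 2 the log2 difference of Arpc4 in dd cells was -0.35 and -2.15, and that of Actr3 in sh cells 0.04 and 0.93.

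Among genes of actin turnover, 12 of 17 were tested, with medians of 0.10 in sh, 0.09 in sd and -0.19 in dd cells. The cofilin relatives had log2 differences of 0.66, 0.89 and 0.88 (Cfl2, in sh, sd and dd cells) and 1.08 (Dstn, in sd cells), while Pfn2, another profilin, had -0.64 in sh cells and Gsn, gelsolin, -0.69 in dd cells. Some of these were uneven between replicate numbers 1 and 2. Pfn2 in sh had -1.44 and 0.17, Gsn in dd 0.0037 and -1.39, and Cfl2 in sh 0.04 and 1.29. Cfl2 in sd and dd and Dstn in sd were above the control at both numbers. Twf1, twinfilin 1, which binds actin monomers and was chosen after its values were seen, had 407 and 32.0 FPKM in sh, 466 and 32.9 FPKM in sd, 403 and 44.8 FPKM in dd, and 509 and 20.3 FPKM in control cells. Of the 12 tested, 3 had every replicate 1 library above every replicate 2 library (14.2% of all genes). The opposite order held for 3 (41.9% of all genes). The 19 of 20 tested genes that cap, bundle or anchor filaments had medians of 0.25, 0.44 and 0.26 in sh, sd and dd cells, and the 10 of 11 tested myosin and tropomyosin genes had 0.11, 0.17 and 0.10. In the last list Tpm4, a tropomyosin, had log2 differences of 1.0 in sh, 1.13 in sd and 0.98 in dd cells, from 10.9 and 20.6 FPKM in sh, 14.9 and 18.2 FPKM in sd, 11.5 and 18.6 FPKM in dd, and 4.75 and 10.1 FPKM in control cells. The treated libraries of Tpm4 all lay above both control libraries, an order that 8.4% of all genes had in sh, 11.1% in sd and 11.2% in dd. Its adjusted p was 1 without the block and 0.999, 0.723 and 0.553 with it (limma).

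The list of SRF, its cofactors and targets, 12 of 18 tested, had medians of -0.10 in sh, -0.09 in sd and -0.41 in dd cells, against 0.15, 0.17 and 0.06 for all genes. Within it Egr1, an immediate early gene, had log2 differences of -1.08 in sh, -0.78 in sd and -1.44 in dd cells, and Fos, another, had 2.0 in sd cells, while Elk4 had -0.87 in sh and Fhl2 -1.07 in dd cells, each with an adjusted p of 1 (limma). These genes were low. Egr1 had 0.0466 to 0.811 FPKM in treated replicate 1 libraries, against 3.58 FPKM in the control. In replicate 2 it had 1.27 to 2.35 FPKM, against 2.80 FPKM. Fos had 0 and 3.14 FPKM in control and 5.02 and 10.1 FPKM in sd cells. Elk4 was at most 3.33 FPKM and Fhl2 at most 2.59 FPKM. At replicate numbers 1 and 2 the log2 difference of Elk4 in sh cells was -1.69 and -0.04, and that of Fhl2 in dd cells -1.06 and -1.08. In sh cells 3 of the 12 were above and 5 below the control at both replicate numbers, where 35.2% and 10.6% of all genes were. In sd cells the counts were 2 and 4 (37.5% and 12.7% of all genes), and in dd cells 2 and 6 (31% and 15.1%). For the microtubule side, 11 of 16 other tubulins were tested, with medians of 0.27, 0.13 and -0.38 in sh, sd and dd cells, 19 of 20 folding factors of actin and tubulin had 0.25, 0.42 and 0.33, and 16 of 18 microtubule regulators had 0.26, 0.35 and 0.21. Vbp1, a subunit of prefoldin, which hands new actin and tubulin to the CCT chaperonin, had log2 differences of 0.81 in sh, 1.16 in sd and 1.22 in dd cells, and Cct4, a subunit of CCT, had 1.03 in dd cells. The plus-end binding gene Mapre1 had 0.47, 0.99 and 0.67 in sh, sd and dd cells.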

How the data were processed

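RNA of mouse embryonic stem cells was sequenced in 8 libraries, 2 each of sh, sd, dd and control cells, grouped by the labels. The deposited values are FPKM per gene and library, per the file headers, and the total they are scaled to is not given in the sources used here. CASAVA 1.4, HISAT2 and the mm10 build are named in the submitters' processing notes. Nothing in the sources used here gives the counting program, its annotation or whether strand was used, so overlapping and antisense genes cannot be told apart. Of 52338 genes with values, 52081 matched GENCODE M21 (GRCm38), which gave symbols, coordinates and exon lengths.

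FPKM times exon length came out as a whole multiple of 1 read, within 0.02, for 98.3% to 98.9% of values under 100 reads, which gave reads per gene and library. Those counts are of reads assigned to genes and not of molecules.

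limma 3.58.1 (R 4.3.3) was fitted on log2(FPKM + 1), a scale that understates changes of low genes, over the 14561 genes with a mean of at least 1 FPKM. All 4 groups were fitted together with no covariate (4 residual degrees of freedom) and a mean-variance trend in eBayes, tests were two-sided, and Benjamini-Hochberg adjustment was per comparison at 0.05. On simulated data with the replicate-number difference of these libraries, the fit returned the simulated differences on average, but without the block it called none of the changed genes, whereas the block fit called nearly all of them. The changes put into those data were larger than any member's difference from the control. That the block fit called them does not bear on differences of the members' size. The fit without the block, which missed them, cannot be relied on to call smaller ones. Libraries with the same replicate number deviated together from their group means (r of 0.75 to 0.893 over 6 pairs, across 14561 genes). With 2 libraries in a group, deviations at 1 number mirror those at the other, so both numbers give the same r. That r carries the difference between the replicate numbers and cannot show that cultures were paired. The block fit (3 residual degrees of freedom), which takes the numbers to pair the libraries, is given beside the fit without it. Alternatives were a pseudocount of 0.1, no filter, median ratio scaling, quantile normalization, the replicate block and leaving out each library.

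The members, the gene lists and the tests were chosen with earlier results of these data known. Genes named were the members, up to 2 per list and comparison with the smallest unadjusted p, the 5 most like Actb by each of 2 measures, and others said to be chosen after their values were seen. Retired symbols were matched through RefSeq synonyms.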

Additional observations from a re-analysis of the deposited data

How the results depend on the processing

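No member was called in any comparison under any alternative, and the lowest adjusted p was 0.208, for Pfn1 in dd cells with the replicate block and 1 library left out. With the replicate block, 0 genes were called in sh, sd and dd cells and in the F test, the block changed no call, and all 30 member differences kept their direction, as they did with a pseudocount of 0.1 and with no filter. Counts of genes called over the whole table were 0 to 102 in sh, 0 to 149 in sd, 0 to 167 in dd and 0 to 38 in the F test when 1 library was left out, the highest counts all with the block and without control replicate 1. The block without control replicate 2 called 1 gene in sd and 1 in dd cells. In those fits the lone control library is taken to vary like the other groups. Rescaling moved the median log2 difference of all genes to 0.03 in sh, 0.04 in sd and 0.07 in dd cells by median ratios and to 0.04, 0.04 and 0.05 by quantiles, beside 0.15, 0.17 and 0.06 as deposited. Median ratio scaling turned 10 of 30 member differences, to -0.13 (Cfl1), -0.15 (Pfn1), -0.054 (Tmsb10), -0.021 (Tuba1b), -0.10 (Tuba1c) and -0.093 (Tubb4b) in sh, -0.16 (Tmsb10) in sd, and -0.018 (Tmsb10), -0.024 (Tuba1c) and -0.023 (Tubb5) in dd cells. Quantile normalization turned 3, to -0.089 (Tmsb10) in sd and -0.049 (Tmsb10) and -0.022 (Tubb5) in dd cells. None of those was past the threshold, and the cause was not tested. The log2 of replicate 1 over replicate 2, averaged over the groups, turned for Tuba1b, at 0.45 by median ratios and 1.25 by quantiles against -0.14 as deposited, and for Tubb5, at 0.50 by quantiles against -0.75.

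Leaving out 1 library reversed 48 of 240 member differences without the block and 24 of 240 with it. The 240 take in fits that left out a library of neither compared group, which could not move the difference. Both shares therefore understate how often leaving out a library of a compared group turned it. Without the block, a fit that left out a library of a compared group compares unequal numbers of replicate 1 and replicate 2 libraries. Over both kinds of fit together, the log2 differences ran, in sh, Actb -4.30 to 3.82, Actg1 -0.061 to 0.71, Cfl1 -1.66 to 1.72, Pfn1 -0.78 to 0.80, Tmsb4x -0.27 to 1.44, Tmsb10 -2.09 to 2.30, Tuba1b -0.10 to 0.39, Tuba1c -0.98 to 1.10, Tubb5 -0.24 to 0.83, Tubb4b -1.09 to 1.23. In sd they ran Actb -4.31 to 3.37, Cfl1 -1.76 to 1.42, Pfn1 -0.91 to 0.67, Tmsb4x -0.85 to 1.56, Tmsb10 -2.16 to 2.23, Tuba1b -0.013 to 0.48, Tuba1c -0.74 to 1.33, Tubb5 -0.11 to 0.67, Tubb4b -0.29 to 1.54. In dd they ran Actb -4.48 to 3.197, Cfl1 -1.94 to 1.25, Tmsb4x -0.53 to 1.37, Tmsb10 -2.18 to 2.21, Tuba1c -1.02 to 1.05, Tubb5 -0.36 to 0.41, Tubb4b -0.75 to 1.08. Actg1 in sd (0.39 to 1.18) and dd cells (0.43 to 1.20), and Pfn1 (-2.16 to -0.059) and Tuba1b (0.042 to 0.54) in dd cells, kept their direction in every such fit while their size moved by over 1.5 times. None of the fits took account of reads at pseudogene copies, which Actg1 and Tuba1b have. Depth limits the members least where reads are many, and the fewest reads behind a member value were 105, for Tmsb10 in control replicate 1.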

Other observations

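Genes that are used like Actb as references for scaling varied in how they differed between the replicate numbers. Of 12 such genes, 1 had every replicate 1 library above every replicate 2 library and 4 had the opposite order, against 14.2% and 41.9% of all genes tested. These genes were named after their values were seen. Gapdh, a glycolytic enzyme, had 4.07 and 74.9 FPKM in replicates 1 and 2 of sh cells, 10.1 and 61.0 FPKM in sd cells, 7.1 and 37.4 FPKM in dd cells, and 4.83 and 64.7 FPKM in control cells, low wherever Actb was high. Eef1a1, an elongation factor of translation, had 232 and 3011 FPKM in sh, 424 and 3020 FPKM in sd, 424 and 2510 FPKM in dd, and 200 and 1760 FPKM in control cells. Hprt, an enzyme of purine salvage, had 109 and 163 FPKM in sh, 147 and 162 FPKM in sd, 135 and 227 FPKM in dd, and 104 and 120 FPKM in control cells. A ratio of Actb to Gapdh would therefore differ between the replicate numbers by more than either gene alone.

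The alpha-tubulin gene Tuba3a, also named after its values were seen, had 0.531 and 72.9 FPKM in sh, 0.651 and 71.9 FPKM in sd, 0.968 and 36.6 FPKM in dd, and 0.31 and 56.0 FPKM in control cells. The microtubule regulator Clasp2 had the opposite order, with 123 and 2.43 FPKM in sh, 58.5 and 2.16 FPKM in sd, 65.4 and 0.951 FPKM in dd, and 124 and 1.69 FPKM in control cells.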
